A study of Mus musculus with 8 samples.

Results

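The genes described here load peptides onto major histocompatibility complex (MHC) molecules or switch that machinery on: B2m, Tap1, Tap2, Tapbp, Tapbpl, Erap1, Nlrc5, Ciita and Cd74. The rule takes them by gene symbol, and all 9 were found among the 25229 genes counted in each library. The libraries were strand-specific, ribosomal-RNA-depleted bulk RNA-seq of liver cells from 8 C57BL/6 mice, enriched for hepatocytes by collagenase perfusion, slow centrifugation and a Percoll step. Every mouse carried Ifih1-/-, a null allele of MDA5, which senses double-stranded RNA, and Alb-Cre+, a Cre recombinase driven by the albumin promoter and so active mainly in hepatocytes. The mice differed at Adar1, which encodes an enzyme that converts adenosine to inosine in double-stranded RNA. The Adar1wt/wt group held 3 mice (males of 11 and 9 weeks and a female of 7 weeks), the Adar1wt/flox group 2 (males of 11 and 9 weeks) and the Adar1flox/flox group 3 (labelled female of 11 weeks, male of 9 weeks and female of 7 weeks). The series' design text counts 2 Adar1flox/flox mice where 3 samples are given, and all 3 were used. These groups are called wt/wt, wt/flox and flox/flox, and values within a group are given in the order of the replicate numbers 1 to 3. The comparisons ask how Adar1 loss in hepatocytes alters the transcriptome when MDA5 is absent.

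Class I molecules show peptides from inside the cell to CD8+ T cells. Proteasomes cut proteins into peptides, the TAP1-TAP2 transporter carries them into the endoplasmic reticulum, tapasin (Tapbp) and the related TAPBPR (Tapbpl) help exchange poor for good peptides, ERAP1 trims their amino ends, and beta-2-microglobulin (B2m) is the light chain of the finished molecule. Class II molecules show peptides from endosomes to CD4+ T cells and are made mainly by dendritic cells, B cells and macrophages, where CD74, the invariant chain, blocks the groove until the endosome is reached. NLRC5 is the transactivator of class I genes and CIITA that of class II genes. Neither binds DNA directly: both act through RFX, CREB and NF-Y proteins bound at the promoter, and interferon-gamma induces both. Hepatocytes normally carry little class I and almost no class II.

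Each library held between 75875711 and 132303735 reads on the sense strand of genes. The wt/wt files carry no batch mark and every wt/flox and flox/flox file carries the mark batch2, so genotype and batch cannot be told apart in either comparison with wt/wt, whereas flox/flox against wt/flox lies within that mark. Reads of Xist and of Y-linked genes went against the labelled sex in flox/flox 1 and flox/flox 2. Their numbers may thus be exchanged, and no sex term was used. By these reads flox/flox 1 was male and flox/flox 2 and 3 were female, while both wt/flox mice were male. Sex and the age of 7 weeks are therefore unevenly spread between flox/flox and wt/flox. The same holds between wt/flox and wt/wt, where wt/wt 3 is a female of 7 weeks. By these reads flox/flox also held more females than wt/wt, where wt/wt 3 alone was female. Terms for the labelled sex or for the sex by transcripts left the same 4 of the 9 genes called in flox/flox against wt/wt. With either term 0 of the 9 were called in flox/flox against wt/flox. Adar itself was at 28.1, 30.0 and 53.6 CPM (the reads of a gene scaled to a common library size) in wt/wt, 22.0 and 31.8 CPM in wt/flox and 49.4, 35.9 and 42.1 CPM in flox/flox. These counts cover the whole gene and the floxed part is not given in the sources used here, so they do not check the genotype. Ifih1 had 0 to 4 reads in every library. Summed CPM of 8 hepatocyte markers (among them Alb and Apoa1) lay between 87219 and 104326 in wt/wt, between 115185 and 134108 in wt/flox, and between 131636 and 201080 in flox/flox. Most of that sum is Alb (63587 CPM in wt/wt 1, the lowest, and 171684 in flox/flox 2, the highest), which was not called in flox/flox against wt/wt (edgeR adjusted p = 0.053); Apoh and Cps1 were called higher, with a median of -0.00 on the log2 scale over the 8 fold changes. In bulk samples, fewer cells of a type and less RNA per cell cannot be told apart.

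Expressed per kilobase of exon, the 9 genes spanned a wide range of levels. B2m averaged 1304 CPM per kilobase over the 8 libraries, followed by Tapbp with 44.4 and Erap1 with 26.4. Tap2 (8.49), Tapbpl (8.29), Tap1 (6.39), Cd74 (6.05) and Nlrc5 (5.19) formed a close middle group, and Ciita was lowest with 0.0686. The order from B2m through Tapbp and Erap1 to Tap2 held in 8 of 8 libraries, as did that of Nlrc5 above Ciita. Within the middle group most neighbours were not separated. Tap2 exceeded Tapbpl in 3 of 8 libraries, and Tap1 against Cd74 and Cd74 against Nlrc5 each split 4 of 8. Only Tapbpl above Tap1 came near a fixed order, in 7 of 8. Cd74 varied most between libraries, 7.95-fold from lowest to highest, and Tapbpl least, 1.56-fold.

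**Figure D1:**
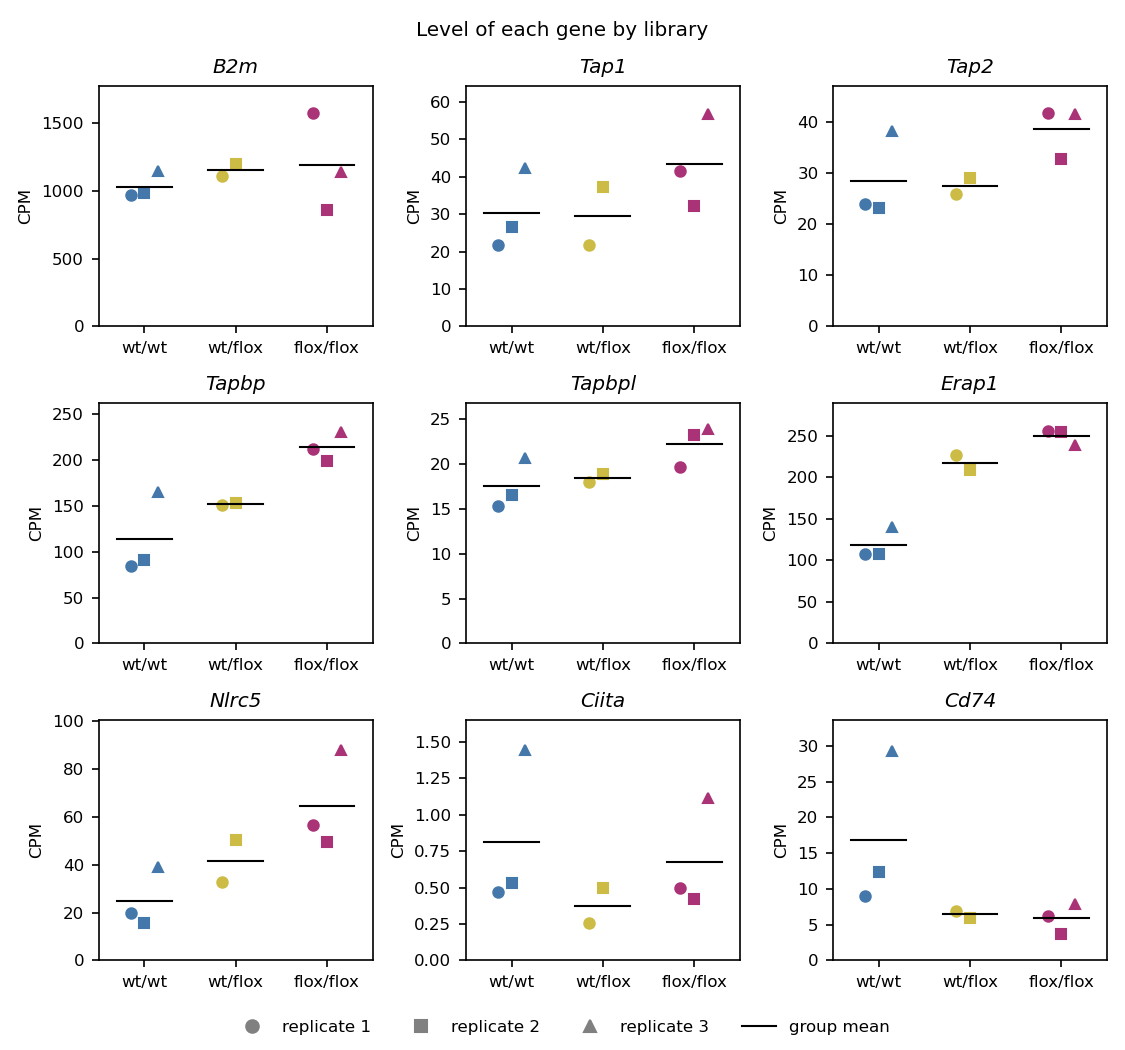
Level of each of the 9 genes (vertical axes, CPM, each from 0) in every library of the 3 genotypes, with symbols for the replicate number and a bar at the group mean. Erap1, Tapbp and Nlrc5 lie higher in all flox/flox than in all wt/wt libraries, Cd74 lies lower, and the other 5 genes overlap.

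In flox/flox against wt/wt, Erap1, Tapbp and Nlrc5 rose and Cd74 fell; B2m, Tap1, Tap2, Tapbpl and Ciita did not pass the test. The test was edgeR's quasi-likelihood F test over 14728 genes with Benjamini-Hochberg adjustment at 0.05. That is 4 of 9 genes called, 3 higher and 1 lower, where 29.9% of all genes tested were called, 15.1% higher and 14.7% lower. The median log2 fold change was 0.45 over the 9 genes and 0.02 over all genes tested. For the same 4 genes the libraries of the groups did not overlap, which held for 45.0% of all genes tested. Without flox/flox 1 and 2, the libraries of contradicted sex, edgeR kept the call of Erap1 (log2 fold change 1.00, adjusted p = 0.0262) and lost those of Tapbp (1.02, adjusted p = 0.106), Nlrc5 (1.81, adjusted p = 0.0511) and Cd74 (-1.11, adjusted p = 0.291). That fit leaves 1 flox/flox library, assumed to vary like the other groups. With the backgrounds above, the counts of 3 higher and 1 lower are a description of the set and not evidence that it moved as a set.

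With 1 floxed allele, wt/flox against wt/wt, Erap1 alone of the 9 was called, higher, against 12.5% of all genes called, 6.58% higher and 5.89% lower. Erap1 and Cd74 did not overlap between these groups, 2 of 9, while 55.1% of all genes tested did not; the median log2 fold change was 0.07 over the 9 genes and -0.06 over all. Within the batch mark, flox/flox against wt/flox, 0 of the 9 genes and 0% of all genes tested were called by edgeR. Across all genes 1240 had an unadjusted p under 0.05 there, limma-voom called 0 and DESeq2 called 75, and none of the 9 was among those with an unadjusted p under 0.05 in edgeR. The libraries of flox/flox lay above both wt/flox libraries for Tap2, Tapbp, Tapbpl and Erap1, 4 of 9, against 27.3% of all genes not overlapping in either direction. The median log2 fold change there was 0.49 over the 9 genes and 0.04 over all.

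**Figure D2:**
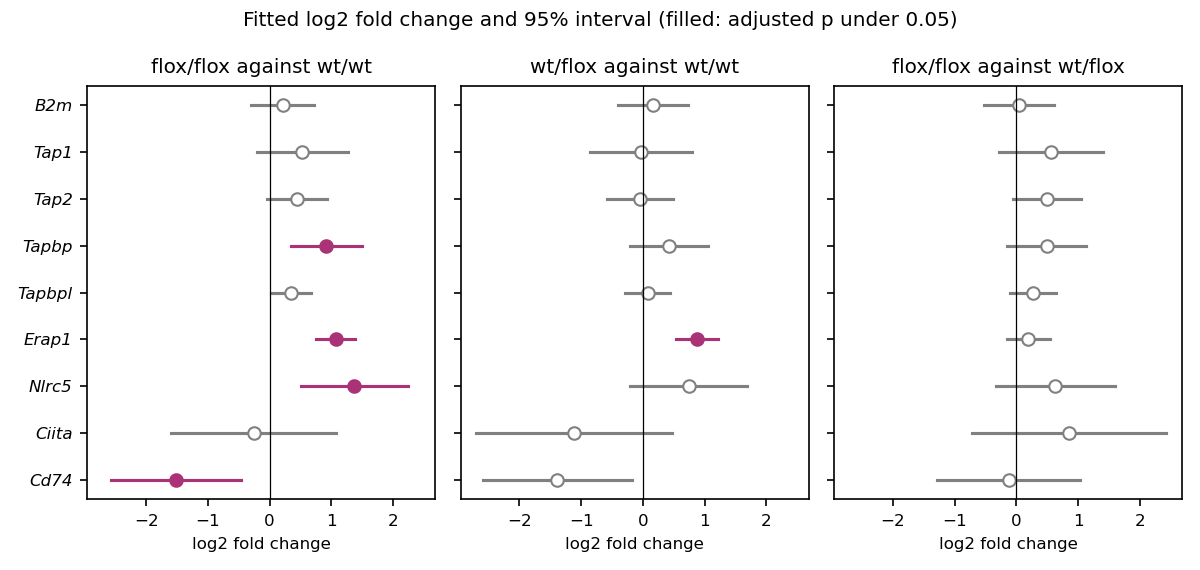
Fitted log2 fold change (horizontal axes) of each of the 9 genes in the 3 comparisons, with bars for the 95% interval and filled points where the adjusted p from edgeR was under 0.05. Erap1, Tapbp and Nlrc5 are filled above 0 and Cd74 below 0 in flox/flox against wt/wt, Erap1 alone in wt/flox against wt/wt, and none in flox/flox against wt/flox.

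Erap1 (chromosome 13, 74639568 to 74693201, plus strand, GRCm38), the aminopeptidase that trims peptides to class I length, separated the groups most cleanly. Its level was 108, 108 and 140.4 CPM in wt/wt, 227 and 209 CPM in wt/flox, and 256, 254 and 238 CPM in flox/flox. Every library with a floxed allele lay above every wt/wt library, and every flox/flox library lay above both wt/flox libraries. Relative to wt/wt, Erap1 rose 2.10-fold in flox/flox (log2 fold change 1.07, SE 0.14, 95% interval 0.75 to 1.39, edgeR adjusted p = 0.00237) and 1.83-fold in wt/flox (0.87, SE 0.15, adjusted p = 0.0166). Between flox/flox and wt/flox the log2 difference was 0.20 (SE 0.15, edgeR adjusted p = 0.643), smaller than either difference from wt/wt, and both of those stand across the change of batch mark. The flox/flox call held without any single library, but the wt/flox call was lost without wt/wt 1, wt/wt 2, wt/flox 1 or wt/flox 2 (adjusted p between 0.0600 and 0.107 in edgeR).

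Lnpep, the endosomal aminopeptidase related to ERAP1 that acts in cross-presentation, moved in the same way. It stood at 38.6, 41.7 and 46.9 CPM in wt/wt, 92.6 and 93.3 CPM in wt/flox, and 93.2, 109.2 and 109.6 CPM in flox/flox. The groups with a floxed allele overlap each other and not wt/wt. Lnpep rose 2.45-fold in flox/flox (edgeR adjusted p = 0.00102) and 2.19-fold in wt/flox (adjusted p = 0.00934), the latter call being lost without wt/wt 2, wt/flox 1 or wt/flox 2.

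The promoters of the genes with an entry in the RefSeq table (GRCm38.p6, 250 bases before to 50 after the start) were searched on both strands for 4 short motifs of the interferon and transactivator pathways. Entries exist for 4 of the 9 genes: B2m, Erap1, Tap1 and Tapbp. The interferon-stimulated response element core, GAAA followed by any 2 bases and GAAA, is in 3.44% of all 32851 promoters of that length, and is found in the B2m and Erap1 windows. CCAAT, the core that NF-Y binds, is in 37.4%, and is found in the B2m, Tap1 and Tapbp windows. Neither TTCNNNGAA, the gamma-activated site core (8.30% of promoters), nor TGACGT, the cyclic AMP response element core (7.51%), matched in the 4 windows. The matched stretches are printed because Erap1 and B2m share the rarer motif while only Erap1 was called, and because Tap1 shares its motif with the neighbouring gene Psmb9. Capitals mark the matches, ATTGG being CCAAT on the other strand and TTTCACTTTC the response element core on the other strand.
B2m, chr2:122147437-122147685, plus strand: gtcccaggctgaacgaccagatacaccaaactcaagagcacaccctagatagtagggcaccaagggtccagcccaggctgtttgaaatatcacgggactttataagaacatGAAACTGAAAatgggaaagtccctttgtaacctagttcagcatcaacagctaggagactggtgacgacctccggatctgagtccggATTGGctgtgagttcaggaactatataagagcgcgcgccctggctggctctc
Erap1, chr13:74639839-74639868, plus strand: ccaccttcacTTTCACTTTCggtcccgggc
Tap1, chr17:34187322-34187351, plus strand: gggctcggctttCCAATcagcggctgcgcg
In B2m the response element match begins 139 bases before the start and the CCAAT match 53 before it. In Erap1 the match begins 4 bases before the start and runs across it, inside the annotated gene, which begins at 74639568. The whole Tapbp window (chr17:33919228-33919527) likewise lies inside its annotated gene, which begins at 33915899. A match is a description of letters, and no binding was measured.

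Tap1 (chromosome 17, 34187553 to 34197225, plus strand) and Tap2 (chromosome 17, 34203527 to 34216321, plus strand) together form the peptide transporter. Tap1 was at 21.8, 26.5 and 42.3 CPM in wt/wt, 21.7 and 37.2 CPM in wt/flox, and 41.6, 32.3 and 56.7 CPM in flox/flox. Tap2 was at 24.0, 23.2 and 38.2 CPM in wt/wt, 25.9 and 29.1 CPM in wt/flox, and 41.9, 32.7 and 41.6 CPM in flox/flox. For both genes wt/wt 3 sat inside the flox/flox range, and the wt/wt and flox/flox groups overlapped. The log2 difference of flox/flox from wt/wt was 0.53 for Tap1 (SE 0.32, 95% interval -0.21 to 1.27, edgeR adjusted p = 0.246) and 0.45 for Tap2 (SE 0.21, interval -0.04 to 0.93, adjusted p = 0.145). Without wt/wt 3, Tap2 passed the test at a log2 fold change of 0.72 (edgeR adjusted p = 0.0162). Tap1 over Tap2 ranged from 0.838 to 1.36 over all libraries, with overlapping groups.

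Tap1 starts head to head with Psmb9, the gene of an immunoproteasome subunit that gives peptides suited to class I. Their RefSeq starts lie 226 bases apart on opposite strands, their promoter windows share 275 bases, and the CCAAT match printed for Tap1 (chr17:34187334-34187338) is the same 5 bases as the match 8 bases before the Psmb9 start. Psmb9 was at 12.2, 12.6 and 18.7 CPM in wt/wt, 4.61 and 6.25 CPM in wt/flox, and 9.25, 5.41 and 9.93 CPM in flox/flox, so all libraries with a floxed allele lay below wt/wt. It fell 2.67-fold in wt/flox (log2 fold change -1.42, edgeR adjusted p = 0.0310), and its value in flox/flox was -0.82 (adjusted p = 0.0552). The wt/flox call was lost without any of wt/wt 1 to 3 or wt/flox 1 and 2. The ratio of Tap1 to Psmb9 was 1.79, 2.11 and 2.26 for the wt/wt libraries, 4.71 and 5.96 for wt/flox, and 4.49, 5.97 and 5.71 for flox/flox. No ratio of a floxed group reached down to those of wt/wt. The exact two-sided permutation test gave p = 0.1 for flox/flox against wt/wt and p = 0.2 for wt/flox against wt/wt, the smallest that 3 against 3 and 3 against 2 libraries allow, and 0.429 each after adjustment over the 15 ratio tests made. The ratios were chosen after the values had been seen. The annotated exons of the pair share 212 bases on opposite strands, where only the strand tells their reads apart.

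**Figure D3:**
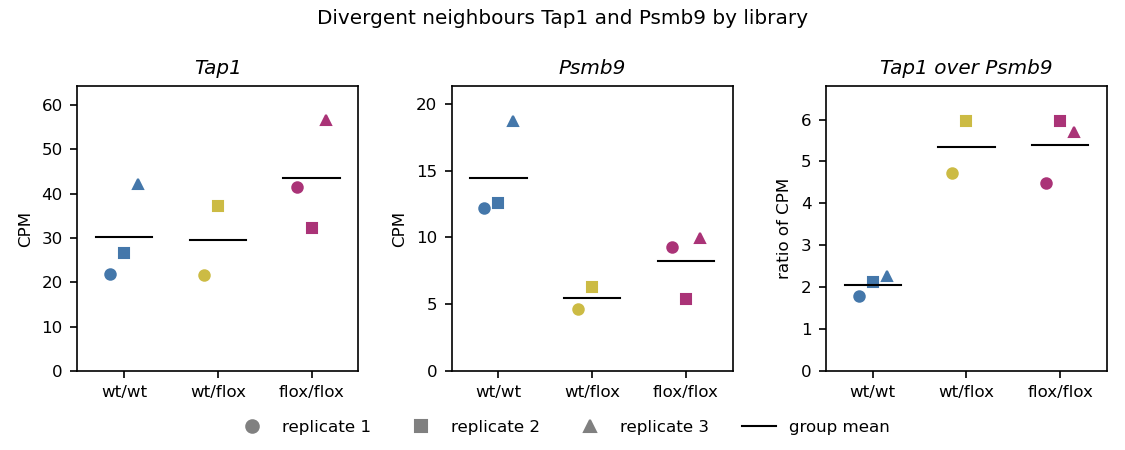
CPM of Tap1 and of its divergent neighbour Psmb9, and the ratio of the pair (vertical axes from 0), in each library by genotype, with a bar at the group mean. Tap1 overlaps between the groups, Psmb9 is lower in every library with a floxed allele than in wt/wt, and the ratio is 1.79 to 2.26 in wt/wt and 4.49 to 5.97 elsewhere.

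Tapbp (chromosome 17, 33915899 to 33929292, plus strand), encoding tapasin, which holds empty class I molecules at the transporter, rose in flox/flox. Its level was 84.2, 91.4 and 165 CPM in wt/wt, 151 and 153 CPM in wt/flox, and 212, 199.6 and 231 CPM in flox/flox. The wt/flox libraries fell inside the wt/wt range, whose top was wt/wt 3, and below all flox/flox libraries. Tapbp was 1.89-fold higher in flox/flox than in wt/wt (log2 fold change 0.91, SE 0.25, 95% interval 0.34 to 1.49, edgeR adjusted p = 0.0281). The call was lost without wt/wt 1 (adjusted p = 0.0816), wt/wt 2 (0.101), flox/flox 2 (0.0546) or flox/flox 3 (0.0721) in edgeR. Against wt/flox the log2 difference of flox/flox was 0.49 (SE 0.28, edgeR adjusted p = 0.569). Tapbp shares 149 exon bases on the same strand with Zbtb22, where the counting could split or drop reads.

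Tapbpl (chromosome 6, 125223933 to 125231860, minus strand) encodes TAPBPR, which edits peptides on class I molecules away from the transporter. It was at 15.3, 16.6 and 20.6 CPM in wt/wt, 18.0 and 18.8 CPM in wt/flox, and 19.6, 23.2 and 23.9 CPM in flox/flox. The wt/wt and flox/flox groups overlapped by 1 library each, wt/wt 3 and flox/flox 1. Its log2 difference of flox/flox from wt/wt was 0.35 (SE 0.14, 95% interval 0.02 to 0.67, edgeR adjusted p = 0.102), and it passed the test without wt/wt 3 (adjusted p = 0.0404). Tapbp over Tapbpl was 5.51, 5.51 and 8.03 for the wt/wt libraries, 8.41 and 8.15 for wt/flox, and 10.8, 8.61 and 9.67 for flox/flox, without overlap between any 2 groups. The exact permutation p of this ratio was 0.1 for flox/flox against wt/wt and 0.2 for both other pairs, 0.429 after adjustment over the 15 ratio tests.

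B2m (chromosome 2, 122147686 to 122153083, plus strand), the class I light chain, was among the most abundant transcripts and showed no call. It stood at 966, 980.1 and 1142 CPM in wt/wt, 1112 and 1199.7 CPM in wt/flox, and 1575, 856 and 1141 CPM in flox/flox. The flox/flox group held both the highest and the lowest library of the 8. The log2 difference from wt/wt was 0.21 in flox/flox (SE 0.22, 95% interval -0.30 to 0.72, edgeR adjusted p = 0.5) and 0.17 in wt/flox (adjusted p = 0.666).

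Nlrc5 (chromosome 8, 94434356 to 94527272, plus strand), the class I transactivator, had the largest rise of the 9 in flox/flox. It was at 20.02, 15.9 and 39.1 CPM in wt/wt, 32.8 and 50.6 CPM in wt/flox, and 56.7, 49.5 and 87.9 CPM in flox/flox. The highest library of wt/wt and of flox/flox was replicate 3, a female of 7 weeks in both groups and the only female of wt/wt. The wt/flox libraries overlapped both groups. Nlrc5 was 2.59-fold higher in flox/flox than in wt/wt (log2 fold change 1.37, SE 0.38, 95% interval 0.50 to 2.24, edgeR adjusted p = 0.0288), 1.67-fold higher in wt/flox without passing the test (adjusted p = 0.247), and 1.55-fold higher in flox/flox than in wt/flox (adjusted p = 0.6). The call in flox/flox was lost without wt/wt 1 (edgeR adjusted p = 0.0912), wt/wt 2 (0.0901) or flox/flox 3 (0.0831). The leukocyte marker Ptprc was also highest in replicate 3 of both groups, at 11.4 CPM in wt/wt 3 and 5.63 CPM in flox/flox 3 against 2.07 to 4.02 in the other libraries, and its part in the Nlrc5 values was not tested.

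Ciita (chromosome 16, 10480059 to 10528418, plus strand), the class II transactivator, was close to the limit of counting. It had 46, 63 and 158 sense reads in wt/wt, 22 and 35 reads in wt/flox, and 45, 47 and 147 reads in flox/flox, or 0.257 to 1.44 CPM. Replicate 3 was again highest in both groups that have one, and the groups overlapped. The log2 difference of flox/flox from wt/wt was -0.26 (SE 0.58, 95% interval -1.60 to 1.08, edgeR adjusted p = 0.758), an interval that holds changes of 2-fold in either direction. That value turned to 0.44 without wt/wt 3 and to 0.58 when reads of both strands were counted, also without a call.

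Reads on the strand opposite to Ciita outnumbered its own. They made up 58.4% of the reads on both strands over the 8 libraries, where the median over all genes tested was 6.94% and 6.12% of genes reached 50% or more. By library the share ran from 20.2% in wt/wt 3 (exact 95% binomial interval 14.8 to 26.5) to 80.8% in flox/flox 2 (75.3 to 85.6). In flox/flox 1 to 3 there were 108, 198 and 159 such reads and in wt/wt 66, 66 and 40, so that the opposite strand carried more in every flox/flox library. Dexi lies on the opposite strand with 329 exon bases in common with Ciita, and was at 17.3 to 25.3 CPM in wt/wt and 13.6 to 21.1 CPM in flox/flox on its own strand. The other 8 genes had between 3.79% (B2m) and 9.56% (Tap2) of their reads on the opposite strand. For Erap1 this share was 7.52%, 7.40% and 5.58% in wt/wt and between 4.22% and 4.81% in the 5 other libraries, so its sense reads rose by more than its opposite-strand reads. Cast lies on the opposite strand of Erap1 with 834 exon bases in common, and its part in these reads was not tested. Intervals and read numbers cover counting error only.

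**Figure D4:**
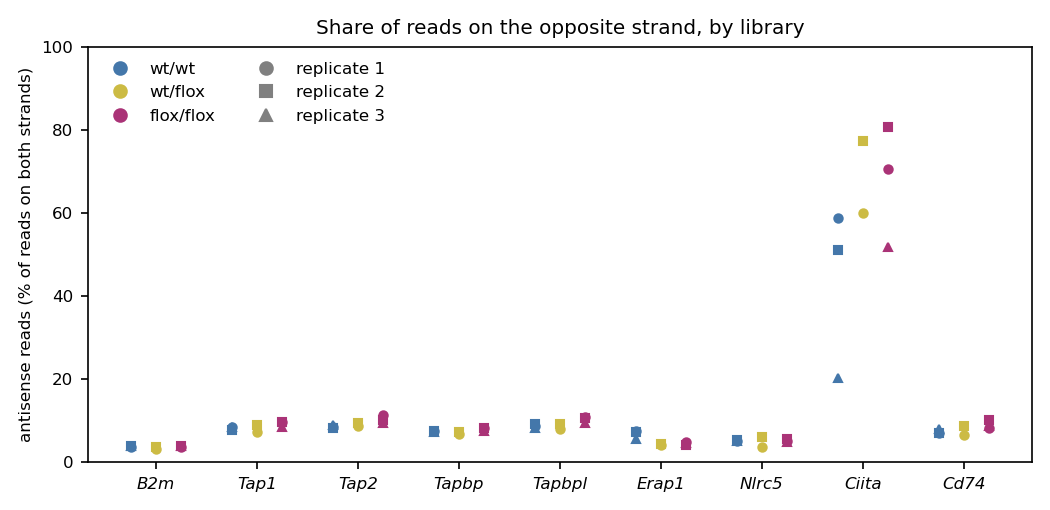
Share of each gene's reads that lay on the opposite strand (vertical axis, percent of the reads on both strands) in every library, coloured by genotype with symbols for the replicate number. Ciita runs from 20.2% to 80.8%, while the highest value of any other gene is 11.5% (Tap2 in flox/flox 1).

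Cd74 (chromosome 18, 60803848 to 60812652, plus strand), the invariant chain of class II molecules, fell. It was at 8.95, 12.4 and 29.3 CPM in wt/wt, 6.90 and 5.98 CPM in wt/flox, and 6.21, 3.68 and 7.85 CPM in flox/flox. Every library with a floxed allele lay below every wt/wt library, and wt/wt 3 stood far above the rest of its group. Cd74 was 2.85-fold lower in flox/flox than in wt/wt (log2 fold change -1.51, SE 0.45, 95% interval -2.56 to -0.46, edgeR adjusted p = 0.0394). In wt/flox the value was -1.39 (adjusted p = 0.115), and between flox/flox and wt/flox it was -0.12 (SE 0.50, adjusted p = 0.933) in edgeR. The call rested on a narrow margin: of the 8 fits that leave out 1 library each, the only one that kept it was that without wt/wt 1, and the others gave adjusted p between 0.0536 and 0.109 in edgeR. Without wt/wt 3 the log2 fold change was -0.85 (edgeR adjusted p = 0.0821), and limma-voom gave -1.39 (adjusted p = 0.0593).

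Of the 3 class II chains that CD74 escorts, H2-Ab1 was called. H2-Ab1, the class II beta chain, fell 2.81-fold in flox/flox (log2 fold change -1.49, SE 0.45, edgeR adjusted p = 0.0412), a call that kept or lost its side under the same 8 left-out libraries as that of Cd74. H2-Aa (log2 fold change -1.38, edgeR adjusted p = 0.062) and H2-Eb1 (-1.23, adjusted p = 0.083) did not pass the test, and their groups overlapped. Summed CPM of H2-Aa, H2-Ab1 and H2-Eb1 tracked Cd74 closely, the ratio of Cd74 to that sum staying between 0.866 and 1.16 in the 8 libraries with overlapping groups. Markers of other cell types were measured beside it. Of 11 macrophage and Kupffer cell markers 0 were called in either comparison with wt/wt, but their median log2 fold change was -1.15 in flox/flox and -2.01 in wt/flox, and their summed CPM was 61.8 to 263 in wt/wt, 34.5 to 35.7 in wt/flox and 34.6 to 121 in flox/flox, with no marker at 0 in any library. Of 8 sinusoidal endothelial markers 5 fell in both comparisons with wt/wt (Clec4g, Dnase1l3, Ehd3, Eng and Flt4), where 29.9% and 12.5% of all genes were called; in wt/flox all 5 calls were lost without wt/flox 1 or wt/flox 2. The summed CPM of the 8 was 152 to 242 in wt/wt, 74.5 to 84.3 in wt/flox and 64.3 to 137 in flox/flox. Dendritic cell markers (8 genes, 6 of them tested) summed to 3.90 to 7.95, 3.24 to 4.02 and 3.59 to 6.13 CPM in these groups. Of these genes 0 were called, and Cd209a was at 0 in wt/flox 1. Zbtb46 alone was 3.00 of 3.90 CPM in wt/wt 1 and 2.81 of 3.59 CPM in flox/flox 2, but 2.65 of 7.95 CPM in wt/wt 3. B cell markers (5 genes, 3 of them tested) summed to 0.345 to 1.68, 0.0351 to 0.185 and 0.233 to 0.357 CPM. Cd79a and Ms4a1 were at 0 in wt/flox 1, and Pax5, called lower in wt/flox, was at 0 in both wt/flox libraries. Monocyte and neutrophil markers (5 genes) summed to 8.68 to 35.8, 4.60 to 5.52 and 4.36 to 12.1 CPM, with S100a9 called lower in flox/flox. Lyz2 alone was 8.14 of 8.80 CPM in wt/wt 1 and 27.1 of 35.8 CPM in wt/wt 3. T and NK cell markers (6 genes, 4 of them tested) summed to 0.244 to 1.63, 0.129 to 0.355 and 0.214 to 0.789 CPM with 0 called. Cd74 over the summed macrophage markers was 0.111 to 0.201 in wt/wt, 0.167 to 0.200 in wt/flox and 0.0649 to 0.119 in flox/flox. The part of these cells in the values of Cd74 was not tested.

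**Figure D5:**
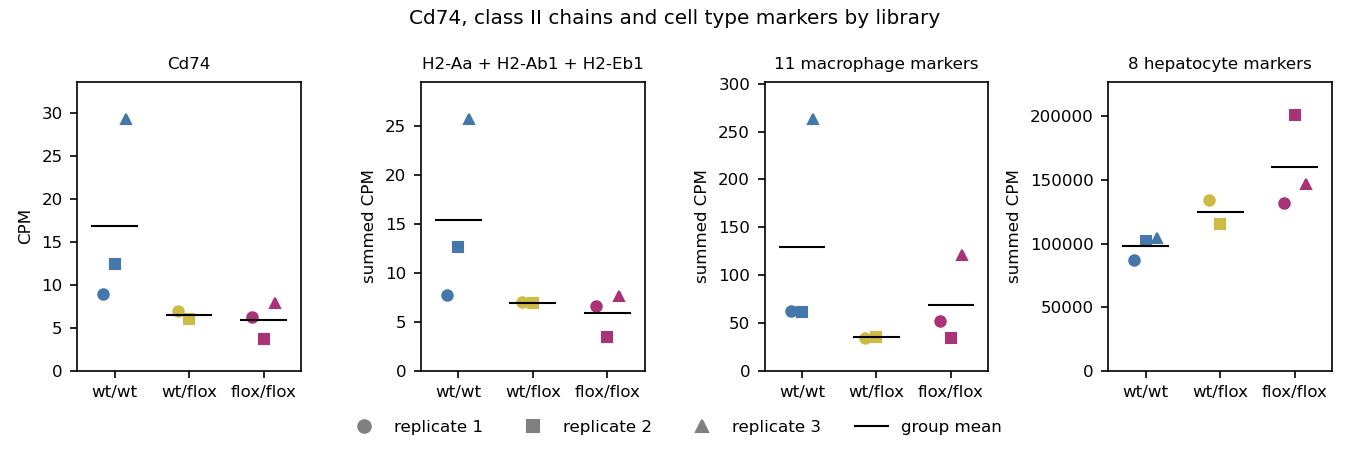
Cd74, the sum of 3 class II chains, the sum of 11 macrophage markers and the sum of 8 hepatocyte markers (vertical axes, CPM, each from 0) in every library by genotype, with a bar at the group mean. Replicate 3 of wt/wt is the highest library in the first 3 panels, and the hepatocyte sum, most of it Alb, is 87219 to 104326 in wt/wt and 115185 to 201080 elsewhere.

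Around the class I genes, the 16 partners measured were split. With both alleles floxed, 3 were higher than in wt/wt (Lnpep, Canx and Uggt1) and 5 lower (Lap3, Psmb10, Psme1, Psme2 and Thop1), 50% of the list where 29.9% of all genes were called, with a median log2 fold change of 0.20. Canx and Uggt1 act in folding in the endoplasmic reticulum, whereas Psmb10 is an immunoproteasome subunit, Psme1 and Psme2 form the proteasome activator PA28, and Thop1 and Lap3 are cytosolic peptidases. Thop1 was 1.76-fold lower (log2 fold change -0.81, SE 0.11, edgeR adjusted p = 0.00254) and Psme2 1.63-fold lower (-0.71, SE 0.12, adjusted p = 0.00475). Psmb10 kept its call in 1 of the 8 fits that leave out 1 library each (edgeR adjusted p up to 0.108) and lost it with the exon length trend removed (-0.20, adjusted p = 0.407). Canx kept its call in 2 of those 8 fits, and Uggt1 lost its call without wt/wt 1 or wt/wt 2. In wt/flox against wt/wt 3 were higher (Lnpep, Tpp2 and Uggt1) and 5 lower (Psmb9, Psmb10, Psme1, Psme2 and Thop1), 50% of the list where 12.5% of all genes were called. Among them Psme2 fell by 0.75 and Psmb10 by 0.88 on the log2 scale (edgeR adjusted p = 0.0171 and 0.0207). Without wt/flox 1 or wt/flox 2 none of these 8 calls was left, since 0 of all genes tested were called by edgeR, and without wt/wt 2 all 8 were lost as well. Between flox/flox and wt/flox 0 of the 16 were called, the smallest p being that of Lap3 (log2 fold change -0.49, edgeR adjusted p = 0.558).

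Of 13 class II partners 11 passed the filter on low counts (H2-DMb2 and H2-Oa did not). Against wt/wt, flox/flox had 0 of them higher and 2 lower, H2-Ab1 and Ifi30, 18.2% of those tested against 29.9% of all genes, with a median log2 fold change of -0.92. Ifi30, a lysosomal thiol reductase that unfolds antigens, fell 2.28-fold (log2 fold change -1.19, SE 0.22, edgeR adjusted p = 0.0065), and its call held without any single library. In wt/flox Ifi30 alone fell (-1.04, SE 0.25, edgeR adjusted p = 0.0355), a call lost without any of wt/wt 1 to 3 or wt/flox 1 and 2. The comparison of flox/flox with wt/flox called 0, the smallest p being that of H2-Ob, a chain of the class II editor inhibitor DO (log2 fold change 1.55, SE 0.70, edgeR adjusted p = 0.558). H2-Ob was at 0.0460 CPM on average in wt/flox and 0.135 in flox/flox, too few reads to rank.

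The 16 partners of the transactivators, with interferon-gamma signalling, showed few calls. Relative to wt/wt, flox/flox showed a rise of 1.62-fold for Ifngr1, a chain of the interferon-gamma receptor (log2 fold change 0.70, SE 0.14, edgeR adjusted p = 0.00851) and a fall of 1.67-fold for Rfxap, a subunit of the RFX complex (-0.74, SE 0.16, adjusted p = 0.0111). Those are 2 of 16, or 12.5%, where 29.9% of all genes were called, with a median log2 fold change of 0.02. In wt/flox against wt/wt only Ifngr1 was called, 6.25% of the list where 12.5% of all genes were called (0.59, SE 0.15, edgeR adjusted p = 0.0426), a call lost without wt/wt 1, wt/wt 2, wt/flox 1, wt/flox 2 or flox/flox 2. Again 0 were called between flox/flox and wt/flox, the smallest p being that of Nfya, a subunit of NF-Y (log2 fold change 0.36, SE 0.14, edgeR adjusted p = 0.558).

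Exon length moved with the fold changes of all genes. In flox/flox against wt/wt, genes with exon lengths like that of B2m (860 bases) had a median log2 fold change of -0.46, those like Cd74 (1679 bases) -0.37, those like Tapbp (3628 bases) -0.11, those like Erap1 (7280 bases) 0.18 and those like Nlrc5 (8493 bases) 0.23. In wt/flox against wt/wt the median was -0.51 for genes like B2m and 0.15 for those like Nlrc5. Within the batch mark, flox/flox against wt/flox, the same medians were -0.05 and 0.06. Each of the 4 genes called in flox/flox against wt/wt lay further from 0 than the median of its length class there. As these genes were chosen for being called, that does not show that their calls go beyond the length trend. When each library's trend with exon length was removed, an alternative chosen after seeing the data, Erap1 (0.88, edgeR adjusted p = 0.00819) and Tapbp (0.98, adjusted p = 0.0310) kept their calls. Nlrc5 (1.13, adjusted p = 0.0564) and Cd74 (-1.21, adjusted p = 0.0935) lost theirs in edgeR, and Tapbpl gained one (0.55, adjusted p = 0.0351).

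The patterns of the 9 genes over the 8 libraries differed in which other genes they resembled, by Pearson's r of log2 CPM among 11193 genes and described without a test, since the libraries share genotype groups and batch mark. Erap1 was closest to Tm9sf4 (0.997), Cpq (0.996) and Atp13a1 (0.994), and Tapbp to Ces2g (0.989), Mob3c (0.984) and Cd47 (0.984). Tap2 was closest to Parp14 (0.984), H2-T23 (0.983) and Trafd1 (0.980), Tap1 to H2-Q6 (0.978), Sorl1 (0.949) and Cd63 (0.942), and Nlrc5 to Trp53bp1 (0.981), D17H6S56E-5 (0.979) and Ccna2 (0.974). Cd74 was closest to H2-Aa (0.991), H2-Ab1 (0.990) and the macrophage receptor Cd163 (0.971). Ciita was closest to Dock2 (0.975), Adgre4 (0.971) and Cd5l (0.964), the last a Kupffer cell marker of the list used above. Tapbpl was closest to Kdm6a (0.978), Apof (0.972) and Adamts6 (0.971), and B2m had no close match, its best being Cyth1 (0.919), Rrm2 (0.908) and Kcnt2 (0.902). Among the 9 themselves the highest value was between Tapbp and Nlrc5 (0.943) and the lowest between Erap1 and Cd74 (-0.65).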

How the data were processed

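The deposited files hold raw counts of reads per gene on the sense and the antisense strand, per the file headers. The build was GRCm38 (mm10) and DESeq2 was among the tools, per the submitters' processing notes, while the aligner, counter and annotation stay unnamed: each was not given in the sources used here. Sense counts were used as deposited, and 5 rows that name no gene were left out. Reads on no feature were 22.2% to 28.1% of unique reads in wt/wt and 31.7% to 40.0% in the libraries marked batch2. Ambiguous reads were 0.511% to 0.668% in wt/wt and 0.317% to 0.419% in those marked batch2. Reads without a unique alignment were 8.97% to 10.9% and 3.92% to 4.98% of unique and non-unique reads together. Of 25229 symbols, 24320 were matched to GENCODE M21 for coordinates and exon lengths. The 3 genotypes were compared in 1 fit over all 8 libraries with edgeR 4.0.16 (R 4.3.3; filterByExpr, TMM, quasi-likelihood F test, two-sided, genotype as the sole term), with Benjamini-Hochberg adjustment over 14728 genes. CPM are TMM-scaled, and a gene is called at an adjusted p under 0.05. The TMM factors were above 1 in wt/wt and below 1 elsewhere. SE and 95% intervals come from the F statistic. The labels name separate mice. Genes and lists were chosen with earlier results of these data known. The text names all 9 genes, and for each gene the 3 most like it. For each list and comparison it names up to 3 called genes of smallest adjusted p, or the 1 of smallest p. Other called list members were named after their values were seen, as were Psmb9, Dexi, Zbtb22, Zbtb46 and Lyz2. Cast, Gm19412, 9330175E14Rik and Vamp1 were named for their annotated overlap on the opposite strand. Alternatives were DESeq2 1.42.0, limma-voom 3.58.1, other scaling and filters, sex terms, a replicate block, both strands, 2 groups alone and libraries left out.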

Additional observations from a re-analysis of the deposited data

Results flagged for a closer look

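Antisense counts were deposited but entered no comparison on their own (1 alternative added them to the sense counts), and for 5 of the 9 genes they stood above every wt/wt library in every flox/flox library. The mean antisense level in flox/flox was 18.8 CPM for Tapbp (wt/wt 6.86 to 13.1), 2.56 CPM for Tapbpl (1.48 to 1.85), 12.0 CPM for Erap1 (8.30 to 8.75), 3.51 CPM for Nlrc5 (0.922 to 2.12) and 1.39 CPM for Ciita (0.365 to 0.670). In wt/flox the same held for Erap1 alone, with a mean of 9.96 CPM. Among all genes tested, 21.5% had antisense levels above every wt/wt library in all flox/flox libraries and 17.9% in both wt/flox libraries. As a share of the reads on both strands, pooled by group, antisense reads of Nlrc5 were 5.22% in wt/wt and 5.13% in flox/flox. In the same order the share was 7.43% and 8.00% for Tapbp, 8.71% and 10.2% for Tapbpl, 6.72% and 4.58% for Erap1. For Ciita it was 39.2% and 66.1%. Annotated genes overlap all 5 on the opposite strand, where their own reads could be counted. Cast shares 834 exon bases with Erap1, Gm19412 904 with Tapbp, Dexi 329 with Ciita and 9330175E14Rik 78 with Nlrc5. Vamp1 overlaps Tapbpl with 0 exon bases in common. The part of these neighbours in the antisense values was not tested. None of these antisense differences was tested, and they stand across the change of batch mark.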

How the results depend on the processing

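No direction of a called result was reversed. Of 564 refitted values of the 9 genes, 531 kept their side of the threshold, 25 lost the call and 8 gained one; 30 changed sign, none of them called in the reported fit. In flox/flox against wt/wt the 4 genes called out of 9 became 1 without the 2 libraries of contradicted sex, and 1 to 5 with 1 library left out; all genes called (4400) became 2915 and 2195 to 4722. In wt/flox against wt/wt the 1 gene of 9 called became 2 with DESeq2, 2 with the replicate block, 2 with the block and the labelled sex, and 0 to 2 with 1 library left out; all genes called (1837) became 3284 with DESeq2, 649 with the exon length trend removed and 0 to 2525 with 1 library left out, the 0 arising without either wt/flox library, where the lone sample is assumed to vary like the other groups (3256 and 2985 genes at an unadjusted p under 0.05). In flox/flox against wt/flox the 0 genes called became 75 with DESeq2 and 5 with the replicate block and the labelled sex; 0 of the 9 were called in each. Same-numbered libraries, which also share an age, correlated in their deviations by 0.01 to 0.45, and those of different number by -0.48 to 0.34. With so few libraries per group, and the numbers of flox/flox 1 and 2 in doubt, these values cannot decide whether the numbers pair the libraries. With the replicate block 4794 genes and 5 of the 9 were called in flox/flox against wt/wt, Tapbpl joining with an adjusted p of 0.0495, and Nlrc5 joined in wt/flox (0.0441) in edgeR; flox/flox against wt/flox stayed at 0 and wt/flox against wt/wt had 1439 genes. Under the filter of a mean CPM of at least 1, Ciita was not tested. Ciita, with 22 to 158 sense reads, is the gene whose depth sets the limit.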
